A study of Mus musculus with 26 samples.

Results

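Multi-summit M-ATAC regions are stretches of open chromatin in which the peak caller placed 3 or more separate summits, a summit being a local maximum of signal inside a called region. M-ATAC tags open chromatin with Tn5 transposase carrying methylated adaptors and then bisulfite converts the fragments, so that the same reads give accessibility and cytosine methylation. The members were chosen by 1 measured value, the number of summits: they were the distinct regions with 3 or more in the authors' list from merged M-ATAC replicates. They numbered 2059 of 66726 regions, while 8612 regions had 2 summits and 56055 had 1. They made up 3.09% of the regions, but held 6664 of 79943 summits and 7.53% of the covered base pairs. Of the members, 1662 had 3 summits, 320 had 4, 66 had 5, 9 had 6 and 2 had 7.

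The cells were KH2 mouse embryonic stem cells (mESC), grown on irradiated feeders in medium with LIF and serum, with the feeders reduced by pre-plating. Open chromatin was measured in 4 M-ATAC samples, in 2 M-ATAC-NC samples (aliquots sequenced without bisulfite conversion) and in 2 ATAC samples (Nextera transposase). The chromatin factor CTCF was measured in CTCF M-ChIP, CTCF M-ChIP-NC and CTCF ChIP, with 2 samples in each group. The KLF4 lists came from 2 samples each of Klf4-/- mESC given WT KLF4 or KLF4 with the mutation R462A from a lentivirus induced with doxycycline, and from Klf4-/- mESC with no KLF4. The WT and R462A lists are deposited under samples titled as M-ATAC, while their library names are those of KLF4 M-ChIP, and they are treated as KLF4 lists with this doubt. RNA-seq of mESC gives 1 value in TPM, a length-normalised transcript abundance, for each gene from 2 replicates pooled by the authors.

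An active promoter typically has a stretch without nucleosomes just upstream of the transcript start, followed by regularly placed nucleosomes. Each nucleosome protects its DNA from the transposase while the linkers are accessible, so a wide accessible stretch can show several maxima of signal. Most CpG-rich promoters (CpG islands) are free of methylation in mammalian cells, whereas enhancers and insulators, such as those bound by CTCF, tend to be short and poorer in CpG.

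The sequences around the summits show how different the members were from each other. The member at the start of Rif1, which encodes a regulator of replication timing and telomeres, had 4 summits. Each line gives 101 bases centred on 1 summit (RefSeq GRCm38.p6, plus strand, none in an annotated UTR). Capitals mark matches on either strand to the letters GGGCGG (an Sp/KLF GC box), CCAAT (the NF-Y box) and CACCC, 3 of the 8 short motifs searched.
Rif1 summit 1, chr2:52072118-52072218: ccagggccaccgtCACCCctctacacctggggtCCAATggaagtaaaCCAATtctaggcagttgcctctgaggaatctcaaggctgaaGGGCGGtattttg
Rif1 summit 2, chr2:52072357-52072457: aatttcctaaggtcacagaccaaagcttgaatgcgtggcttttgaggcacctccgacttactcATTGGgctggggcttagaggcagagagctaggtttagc
Rif1 summit 3, chr2:52072606-52072706: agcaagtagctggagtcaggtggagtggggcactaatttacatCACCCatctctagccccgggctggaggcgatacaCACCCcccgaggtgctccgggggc
Rif1 summit 4, chr2:52072712-52072812: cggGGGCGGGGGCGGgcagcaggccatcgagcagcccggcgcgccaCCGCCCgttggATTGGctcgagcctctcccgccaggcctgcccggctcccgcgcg

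The fold enrichment over the local background was 11.9 at the first Rif1 summit, 3.29 at the second, 4.52 at the third and 6.26 at the fourth. The strongest and the weakest summit of Rif1 were thus neighbours. M-ATAC samples placed 2, 1, 2 and 3 summits in this member, M-ATAC-NC 1 and 2, and ATAC 2 and 2.

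The next 4 windows were chosen for their methylation, and capitals mark CpG. Klf4 encodes a pluripotency factor, and its promoter member was CpG-dense and nearly free of methylation. The members in introns of Gng12 and Tub, which encode a G protein subunit and a protein of neurons, were partly methylated. They had 11.4 and 20.26 CpG per kb, against 122.6 in the Klf4 member. Pisd-ps2 is a pseudogene.
Klf4 summit 4, chr4:55532941-55533041: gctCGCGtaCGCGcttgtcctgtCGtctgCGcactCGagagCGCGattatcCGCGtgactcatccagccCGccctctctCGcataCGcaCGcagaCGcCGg
Gng12 intron summit 2, chr6:66910858-66910958: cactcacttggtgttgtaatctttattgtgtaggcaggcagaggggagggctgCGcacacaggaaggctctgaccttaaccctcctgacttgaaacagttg
Tub intron summit 3, chr7:108972813-108972913: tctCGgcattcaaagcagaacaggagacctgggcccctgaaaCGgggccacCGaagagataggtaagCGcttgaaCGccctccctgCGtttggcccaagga
Pisd-ps2 summit 1, chr17:3081630-3081730: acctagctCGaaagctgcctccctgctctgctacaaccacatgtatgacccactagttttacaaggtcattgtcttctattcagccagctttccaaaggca

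In the Klf4 window, 0 of 409 reads were methylated over 33 cytosines on both strands, which are counted separately. By contrast, 12 of 23 reads were methylated at the single CpG of the Gng12 window. The Tub window had 28 methylated reads of 44 and the Pisd-ps2 window 26 of 29.

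Width and fold follow from how the members were chosen and are given as a description. The median width was 815 bp (interquartile range 677.5 to 968.5 bp), against 283 bp over all regions. At the limit of the rule, regions of 3 summits had a median width of 778.5 bp and regions of 2 summits 541 bp, and their median highest folds were 9.43 and 9.04. The median highest fold was 9.15 in the members and 7.07 over all regions. Members were therefore wide rather than tall: 3255 regions of 1 or 2 summits that reached the lower quartile of the members' width, called wide regions here, had a median highest fold of 13.0.

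Neighbouring summits in members were 221 bp apart in the median over 4605 distances, with an interquartile range of 162 to 298 bp and extremes of 33 and 799 bp. Of these distances, 41.4% lay between 150 and 250 bp, against 36.8% of the 8612 distances in regions of 2 summits, whose median was 228 bp. Members of 5 to 7 summits were packed a little more closely, with a median of 198 bp and 45.5% between 150 and 250 bp. The summits of a member were unequal, since the highest fold was 1.88 times the lowest in the median and at least 2 times in 916 members (44.5%). In members of 3 summits the strongest lay at one end in 1152 of 1662 (69.3%), where 2 of the 3 summits are ends.

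**Figure D1:**
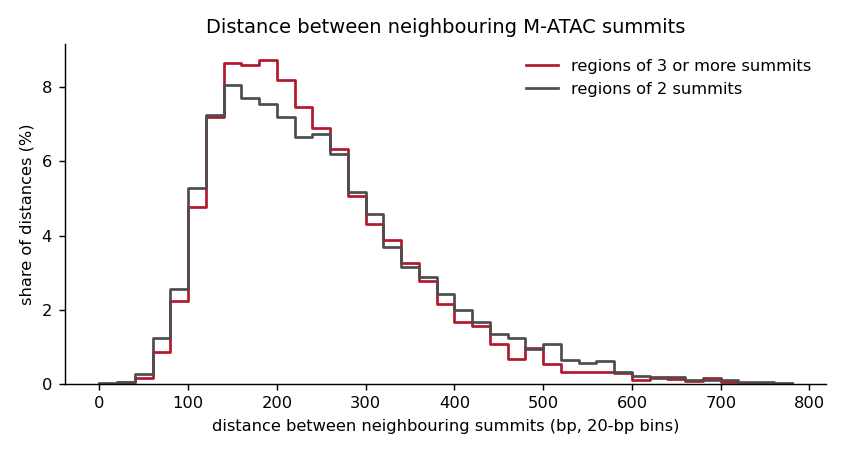
Share of distances between neighbouring M-ATAC summits in bins of 20 bp (x axis, bp) for regions of 3 or more summits (red, 4605 distances) and of 2 summits (grey, 8612 distances). Both distributions rise steeply after 100 bp and fall slowly, with medians of 221 and 228 bp.

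Most members were promoters. A transcript start (GENCODE M21) lay within 3 kb of 1524 members (74.0%, 95% Wilson interval 72.1 to 75.9%) and inside 1314 (63.8%). The first share was 35.7% for regions of 1 summit and 57.1% for regions of 2. The share holding a start rose with the number of summits, from 15.6% at 1 summit and 42.1% at 2 to 61.0% at 3, 74.4% at 4 and 81.8% at 5 to 7. In wide regions of 1 or 2 summits it was 63.4% (61.7 to 65.0%), an interval that overlaps that of the members (61.7 to 65.9%). Outside promoters, 236 members lay in genes and 299 between genes.

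Base composition followed the same order. Members had a median of 66.6 CpG per kb, against 14.1 in regions of 1 summit, 30.3 in regions of 2 and 63.4 in wide regions. A CpG-island-like composition (GC of at least 50% and an observed to expected CpG ratio of at least 0.6) was present in 60.4% of members (58.3 to 62.5%), in 58.3% of wide regions (56.6 to 60.0%) and in 16.0% of regions of 1 summit. Among regions holding a protein-coding start, 179 members (14.2%, 12.4 to 16.2%) held such starts on both strands. Divergent promoters, in which a pair of genes starts in opposite directions, are of this kind, but the order of the starts was not checked. The share with starts on both strands was 15.4% in wide regions (13.9 to 17.0%) and 5.95% in regions of 1 summit (5.45 to 6.49%). In these measures members stood apart from short regions, while their intervals overlapped those of wide regions with fewer summits.

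Genes at members were expressed at moderate levels. For the nearest gene within 3 kb the median was 13.98 TPM (95% order-statistic interval 12.05 to 15.91, 1473 genes), against 3.82 TPM (3.51 to 4.17) at regions of 1 summit and 17.06 TPM (15.62 to 18.71) at wide regions. When only genes with a start inside the region were taken, the median was 16.0 TPM (13.8 to 18.1) for members and 19.1 TPM (17.8 to 20.9) for wide regions. The first pair of intervals overlapped slightly and so did the second. Of the 1473 genes, 1222 (83.0%) reached 1 TPM and 60 were listed at 0. In bulk RNA, fewer cells expressing a gene and less RNA per cell cannot be told apart. The 8 stem cell markers checked, from Zfp42 to Dppa5a, were at 229 to 5394 TPM. Feeder markers were also present, from 0.08 TPM for Lum to 85.3 TPM for Acta2, and their part in these levels was not tested.

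**Figure D2:**
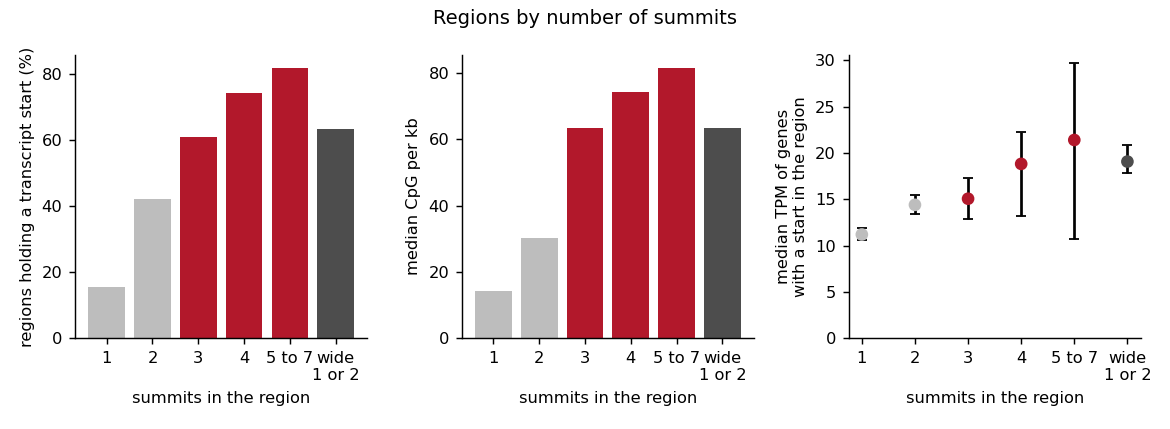
Regions by number of summits (x axis; dark grey, 3255 wide regions of 1 or 2 summits; red, members): percent holding a transcript start, median CpG per kb, and median TPM of genes with a start in the region, with 95% order-statistic intervals. Start share and CpG rise with summit number to 81.8% and 81.5 per kb at 5 to 7 summits, and wide regions sit near the regions of 3 summits in these, but above them in TPM (19.1 against 15.1).

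In 1204 members that held the start of a protein-coding gene, positions were measured from that start along the direction of transcription. The strongest summit lay upstream in 821 (68.2%), at a median of -74 bp. The 3959 summits as a whole were split nearly evenly, with 50.9% upstream. Where a member held several starts, the one nearest its midpoint had been taken, which favours an even split. Between 100 and 200 bp downstream only 8.18% of all summits were found, against 14.4% in the last 100 bp upstream and 12.2% between 200 and 300 bp downstream. Midpoints between neighbouring summits were spread more evenly, with 14.6% in the last 100 bp upstream, 15.6% in the first 100 bp downstream and 16.2% between 100 and 200 bp, and fell to 8.17% between 200 and 300 bp. Nucleosomes were not measured.

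**Figure D3:**
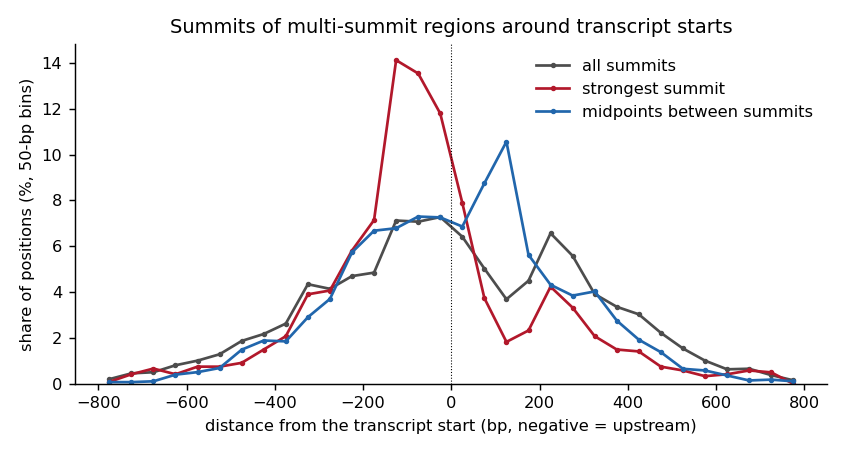
Positions of all summits (grey, 3959), the strongest summit (red, 1204) and the midpoints between summits (blue, 2755) around transcript starts, in percent per 50 bp; negative values on the x axis (bp) are upstream. The strongest summit piles up just upstream of the start, and all summits dip at 100 to 200 bp downstream, while the highest point of the midpoints is between 100 and 150 bp.

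Short motifs were counted in 101-bp windows, on both strands, as a description, and matches of different motifs may overlap. At members within 3 kb of a start, GGGCGG was present at 42.7% of the 1524 strongest summits (40.3 to 45.2%), 31.9% of the 3462 other summits and 31.4% of the 3351 midpoints. The median GC content of these windows was similar, at 65.4%, 64.4% and 66.3%. CCAAT was present at 18.6% of strongest summits, 9.59% of other summits and 7.58% of midpoints. The weaker summits of promoter members were thus nearer to the midpoints than to the strongest summit in both motifs. Both fell in the same order in promoter regions of 2 summits. There GGGCGG was at 37.3%, 29.2% and 26.8%, and CCAAT at 20.7%, 11.45% and 9.22%. Other motifs searched did not all follow this order. In promoter members CACCC was nearly level, at 33.1%, 31.6% and 32.4%, and TATAAA rose, from 0.656% to 0.924% and 1.55%. At the strongest summit of wide promoter regions, CCAAT was more frequent (30.3%) than in promoter members, while GGGCGG was at a similar share (42.8%). Over 32851 RefSeq promoter windows of 300 bases (GRCm38.p6), 35.7% held GGGCGG and 37.4% held CCAAT. In distal members, ATGCAAAT, the octamer bound by Oct4 and its relatives, was present at 2.80% of 535 strongest summits (1.71 to 4.57%). It was at 1.49% of 1143 other summits (0.931 to 2.37%) and 1.38% of 1090 midpoints. The share at the strongest summit was 2.76% in distal regions of 1 summit, 2.44% in those of 2 and 2.69% in wide distal regions. A match of letters says nothing of binding.

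Most members were found again as open chromatin in single samples, but few as regions of 3 or more summits. The merged list was made from M-ATAC replicates, although which of the 4 is not stated, and these samples are given as a description: 79.2%, 84.7%, 81.9% and 77.1% of members had a peak in replicates 1 to 4, and 5.88%, 9.28%, 6.90% and 5.73% held 3 or more summits of that sample. M-ATAC-NC and ATAC were not used to choose the members. The M-ATAC-NC samples are aliquots of tagmented DNA kept before conversion, however, so they are not independent of M-ATAC as ATAC is. Peaks overlapped 90.9% and 94.5% of members in the M-ATAC-NC samples and 85.9% and 91.9% in the ATAC samples, and the ranges of the 2 groups overlap. Over all regions the shares were 42.9% and 48.4% and then 35.2% and 43.8%, and wide regions of 1 or 2 summits were above the members, at 95.2% and 97.3% and then 92.3% and 96.0%. The share with 3 or more summits was 3.40% and 5.59% in M-ATAC-NC and 10.7% and 16.3% in ATAC, without overlap. In wide regions it was 0.891% and 1.29% in M-ATAC-NC and 5.53% and 7.74% in ATAC, so ATAC was the higher group there too. The difference of -8.99 percentage points (M-ATAC-NC 4.49 ± 1.54, ATAC 13.5 ± 3.95, SD, n = 2 each) was larger than either SD, but the exact permutation test cannot go below p = 0.33 with these numbers, and gave that value (two-sided, adjusted p = 0.667 over 7 comparisons). The labels do not say that replicates were separate cultures, so these p-values measure only the spread between the samples. With summits of -log10 q of at least 5 in the sample lists the difference was -4.71 points, and among members of 4 or more summits -13.9. For overlap the difference was 3.76 points (exact permutation test, p = 0.667), within the SD of ATAC (4.22). It was 0.777 points without ATAC replicate 1, 1.97 without M-ATAC-NC replicate 2, 6.75 without ATAC replicate 2 and 9.54 with -log10 q of at least 5. Over their own regions, the ATAC lists had 2.76% and 3.44% with 3 or more summits and the 6 lists made with methylated adaptors 0.616 to 1.13%. ATAC and M-ATAC-NC differ in transposase, the peak lists hold no read counts, and the part of depth was not tested.

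Of the 2059 members, 1636 had a peak in all 4 M-ATAC-NC and ATAC samples and 39 in none. Only 10 held 3 or more summits in all 4, and 1536 (74.6%, 72.7 to 76.4%) did so in none. Such joint counts were not made for other regions, so they only describe the members. A sample had 1.20 to 1.61 summits per member on average in these 4 lists, where the merged list had at least 3 by the rule.

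Strong and weak summits of the same member differed in how often they were met. A summit of M-ATAC-NC lay within 50 bp of 33.6% and 39.7% of the 2059 strongest summits, but of 14.0% and 16.9% of the 4605 other summits. At midpoints between summits the shares were 17.1% and 17.4%. In ATAC the shares were 38.5% and 44.0% for the strongest, 17.0% and 21.1% for the others and 15.8% and 17.9% for midpoints. In both groups the weaker summits were thus met about as often as midpoints, which lie nearer to the middle of a member. Seen from the other side, 52.1 to 55.6% of the summits that M-ATAC-NC and ATAC placed between the outer summits of members lay within 50 bp of a merged summit, where 41.7% of the base pairs lie. In the 4 M-ATAC samples, the assay from which the merged list was made, the same share was 82.5 to 85.7%. Over all member summits the match was 20.1% and 23.9% in M-ATAC-NC and 23.6% and 28.2% in ATAC, a difference of -3.89 points (exact permutation test, p = 0.667) against SDs of 2.71 and 3.23. The difference was -1.61 without ATAC replicate 2, -1.98 without M-ATAC-NC replicate 1, -6.17 without ATAC replicate 1 and -1.30 with -log10 q of at least 5. In regions of 1 summit the match was 21.9% and 26.6% in M-ATAC-NC and 17.6% and 23.5% in ATAC. In regions of 2 summits it was 24.4% and 28.5% and then 23.9% and 28.8%. Member summits were thus matched at shares near those of other regions.

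**Figure D4:**
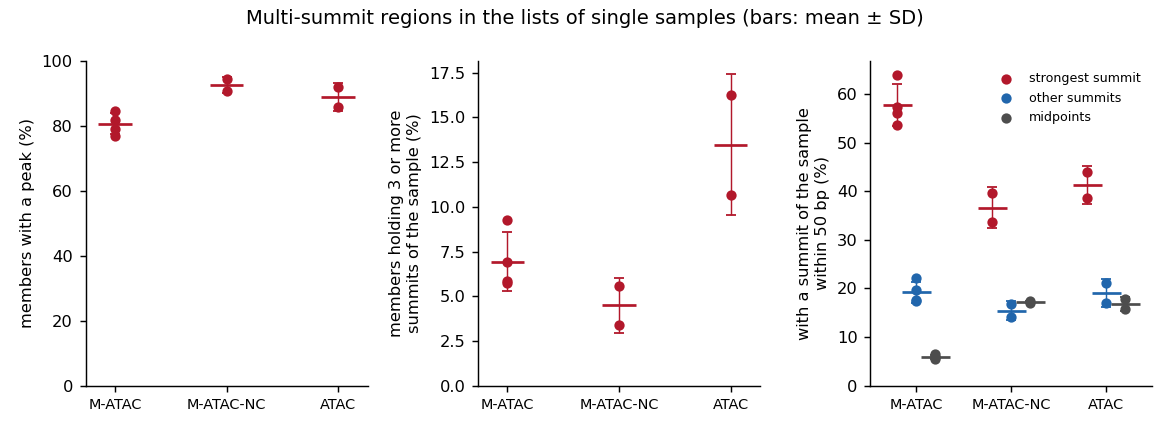
The 2059 multi-summit regions in the lists of single samples (points; lines, mean ± SD; 4 M-ATAC, 2 M-ATAC-NC and 2 ATAC): percent with a peak, percent holding 3 or more summits of the sample, and percent of strongest summits, other summits and midpoints with a sample summit within 50 bp. In M-ATAC-NC and ATAC the strongest summits (33.6 to 44.0%) stand above the others, which sit level with midpoints.

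Of the 11 members with 6 or 7 summits, the 10 that rank first when ties go to the wider region are described here (Cdyl, at 1012 bp, was the narrowest), and most held far fewer summits in any single sample. Tmem229a, which encodes a transmembrane protein and was nearly silent (0.18 TPM), had 7 summits at chr6:24955223-24956757, with folds of 6.34, 4.63, 4.0, 6.54, 3.37, 8.23 and 5.70. The M-ATAC samples placed 2, 2, 3 and 2 summits there, M-ATAC-NC 3 and 2, and ATAC 3 and 3. Egr1, an immediate early transcription factor at 301 TPM, had 6 summits at chr18:34859866-34861413, and the counts were 3, 4, 2 and 3 in M-ATAC, 2 and 1 in M-ATAC-NC and 2 and 4 in ATAC. Jag1, a Notch ligand at 9.28 TPM, had 6 summits over 1451 bp and held 3 or more in all 4 M-ATAC-NC and ATAC samples, as did 1190002N15Rik at 11.5 TPM with 6 summits over 1861 bp. Fndc3a (25.3 TPM) and Cebpd (2.88 TPM), which encodes a C/EBP transcription factor, also had 6 summits. So did the member with the starts of Hadha and Hadhb, which encode the mitochondrial trifunctional enzyme of fatty acid oxidation. Cebpd and Hadha had 1 or 2 summits in each of the M-ATAC-NC and ATAC samples. Fiz1 and Zfp524 shared a member of 1573 bp with 6 summits. Ppp2r3d, with 6 summits over 1392 bp, had 5, 6, 3 and 2 in M-ATAC, 3 and 4 in M-ATAC-NC and 3 and 3 in ATAC. Its methylation, 9.06% over 1446 reads, was the highest of these 10.

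The widest and strongest member was a copy of mitochondrial DNA. Gm13340, at chr2:22587617-22590129, had 7 summits over 2513 bp and a fold of 27.3 at the sixth. The region matched the mitochondrial genome over 100% of its length, with a best identity of 98.1%. Of its 31-base words, 63.3% occurred exactly elsewhere on the assembled chromosomes or in the mitochondrial genome, which were searched together. M-ATAC samples placed 5, 6, 3 and 4 summits there, while the M-ATAC-NC and ATAC samples placed 1 each, with a highest fold of 38.0 to 40.1. Its listed level of 10030 TPM is uncertain, since reads from such a copy and from mitochondria are hard to separate. The second highest widths belonged to 1190002N15Rik and to the member of Mboat7 and Tsen34 (1726 bp). A mitochondrial match was found in 2 more members, at Gm4076 (5 summits, fold 21.7) and Gm11408 (3 summits, fold 13.2). In all, 46 members (2.23%) had at least 50% of their 31-base words elsewhere, and the median over members was 0%.

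With 1 gene taken for each member that held a start, the highest TPM after Gm13340 belonged to heat shock, ribosomal and redox genes. Hsp90aa1 (4370 TPM) and Hspa8 (2270 TPM) encode cytosolic chaperones, Rps19 (1451 TPM) a ribosomal protein and Prdx1 (1407 TPM) a peroxiredoxin. Each had 3 summits, and their highest folds were between 6.75 and 11.2. The ribosomal protein genes Rpl7a (2724 TPM) and Rps25 (1905 TPM) also had starts inside members, which they shared with Med22 and Trappc4 and which were named for those genes. Tmem229a, near the bottom of the range of TPM, had more summits than any of these.

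Gene lists of known function were compared with the share of all protein-coding genes with a start within 3 kb of a member, which was 7.59% (1665 of 21938). DNA methylation and demethylation enzymes had 4 of 9 genes at a member: Dnmt1 (the maintenance methyltransferase, 107 TPM), Tet1 and Tet2 (which oxidise methylcytosine, 80.05 and 24.05 TPM) and Tdg (a glycosylase that removes the oxidised base, 60.8 TPM). All 4 had 3 summits, with highest folds of 13.6, 7.99, 12.5 and 8.29. Pluripotency regulators had 4 of 34 (11.8%), namely Klf4, Rif1, Tdgf1 (a Nodal co-receptor) and Dppa5a (an RNA-binding protein). Each of the first 3 had 4 summits. The members of Tdgf1 and Dppa5a lay 1002 and 634 bp from the start and not over it.

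Ribosomal protein genes had 6 of 78 (7.69%), although all 78 reached 1 TPM and their median was 2216 TPM, and replication-dependent histone genes 5 of 67 (7.46%). Both shares were near the share of all genes. Imprinted genes had 2 of 26, Grb10 (a growth inhibitor) and Zrsr1 (the list did not hold Impact, an imprinted gene at another member), and the chromatin architecture list had 1 of 8, Ctcf itself at 82.9 TPM. Small RNA hosts had 1 of 19, Gas5 (925 TPM), whose member also held the start of Zbtb37. Lineage transcription factors had 1 of 30, Sox17, an endoderm factor listed at 9.09 TPM, where the other primitive endoderm markers checked were at 8.47 to 33.5 TPM. Its member had 4 summits with even folds from 4.29 to 4.76, and the M-ATAC samples placed 1 summit each there, M-ATAC-NC 2 and 3, and ATAC 2 and 4. The lists are short, and the count of 4 among 9 enzymes has no test.

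CTCF peaks overlapped 14.0% and 10.6% of members in CTCF M-ChIP, 10.1% and 11.8% in CTCF M-ChIP-NC and 17.6% and 21.9% in CTCF ChIP. Over all regions the same samples had 11.6% and 9.80%, 9.05% and 10.7%, and 13.1% and 15.0%, so CTCF ChIP was the highest group there too. The values of CTCF M-ChIP overlapped those of its unconverted aliquots (difference 1.36 points, exact permutation test, p = 0.667), and its direction turned to -0.340 without CTCF M-ChIP replicate 1. Both CTCF M-ChIP values lay below both CTCF ChIP values (difference -7.46 points, exact permutation test, p = 0.33, the smallest possible). A peak in both CTCF M-ChIP samples was found at 196 members (9.52%, 8.33 to 10.9%). Members were thus near the background of 9.23% of all regions. In wide regions of 1 or 2 summits the share was 7.19% (6.35 to 8.13%), an interval below that of the members. In all 6 CTCF samples 147 members had a peak, and 1600 had none. Joint counts over all 6 samples were not made for other regions, so these counts only describe the members. Summits of the merged CTCF M-ChIP list inside members numbered 362, and 57.5% (52.3 to 62.4%) lay within 50 bp of an M-ATAC summit, a zone that covers 38.9% of the members' base pairs.

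The KLF4 lists were compared in the same way. The WT lists overlapped 9.66% and 17.7% of members and the R462A lists 0.243% and 0.583%. The Klf4-/- lists, from cells without KLF4, give the background and overlapped 14.2% and 20.4%. They come from KLF4 ChIP, while the other lists have library names of KLF4 M-ChIP. Genotype and library type thus cannot be told apart in these comparisons. Over all regions the shares were 3.94% and 6.90% for WT, 0.184% and 0.270% for R462A and 8.15% and 12.4% for Klf4-/-, in the same order. The mean of WT was not above that of Klf4-/- in members (difference -3.62 points, exact permutation test, p = 0.667), and without WT replicate 1 the difference was 0.413. The R462A lists were below the Klf4-/- lists by more than the SD (-16.9 points, SD 0.240 and 4.43, exact permutation test, p = 0.33, the smallest possible). Members in both WT lists and neither Klf4-/- list numbered 81 (3.93%, 3.18 to 4.86%). The background was 1.65% of all regions, and the share was 4.27% (3.63 to 5.02%) in wide regions of 1 or 2 summits, an interval that overlaps that of the members. By place, 70 of these 81 lay within 3 kb of a start, as did 74.0% of all members. They made up 4.59% of promoter members (3.65 to 5.76%), and the share of distal members was 2.06% (1.15 to 3.64%). Over all distal regions it was 0.929%.

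Methylation was read from cytosines with at least 5 reads in the authors' table of merged M-ATAC replicates, which has no replicate SD. Such cytosines were found in 2044 members, with a median of 60 cytosines per member against 6 over all regions and a median of 8 to 10 reads per cytosine in their parts. Members were nearly free of methylation. Over 134648 cytosines 0.674% of 1647218 reads were methylated (Wilson 0.662 to 0.687%), against 2.48% in regions of 1 summit, 1.12% in regions of 2 and 0.553% in wide regions. These intervals cover counting error only, and reads of 1 region are not independent. The median member was at 0.395%, 215 of 1925 members with at least 5 cytosines had no methylated read, and 56 (2.91%, 2.25 to 3.76%) reached 20%. In wide regions 2.97% did (2.42 to 3.64%), and in regions of 1 summit 11%.

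Distal members were more methylated than promoter members, at 3.91% (3.79 to 4.03%) against 0.457% (0.446 to 0.467%). Both were below regions of 1 summit in the same place, which had 9.22% and 1.02%. Wide distal regions of 1 or 2 summits had 4.01% (3.92 to 4.10%), an interval that overlaps that of distal members. Wide promoter regions had 0.357% (0.351 to 0.364%), below promoter members. Of 431 distal members, 41 (9.51%, 7.09 to 12.6%) reached 20%, against 19.4% (18.6 to 20.2%) of distal regions of 1 summit and 10.7% (8.60 to 13.1%) of wide distal regions.

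Methylation was lower between the summits of a member than at them. Within 50 bp of a summit 0.709% of reads were methylated (0.691 to 0.726%, median coverage 10), and between the outer summits but farther than 50 bp from any, 0.507% (0.487 to 0.527%, median coverage 8). Outside the outer summits it was 0.861%. The value between summits was lower on 20 of 20 chromosomes, with differences between -0.654 and -0.0102 percentage points. By distance from the nearest summit, methylation was 0.674% within 20 bp, 0.759% at 20 to 40 bp and down to 0.373% at 140 to 160 bp, and it was 0.494% and 0.513% in the next bins of 20 bp, which held fewer cytosines. In distal members the values were 4.27% at and 2.49% between summits, and in promoter members 0.467% and 0.379%. In the members holding a start they were close, at 0.3687% (0.3554 to 0.3825%) and 0.3355% (0.3187 to 0.3532%). In wide promoter regions of 1 or 2 summits they were 0.312% and 0.315%, whose intervals overlap (0.302 to 0.322% and 0.300 to 0.330%). In wide distal regions they were 3.47% (3.33 to 3.62%) and 3.10% (2.91 to 3.31%), again lower between summits. Regions of 2 summits had 1.21% and 0.718%. Coverage and methylation both differed between the parts, and the part of coverage was not tested. No bisulfite conversion rate was used here, so unconverted and methylated cytosines cannot be told apart at such low values.

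**Figure D5:**
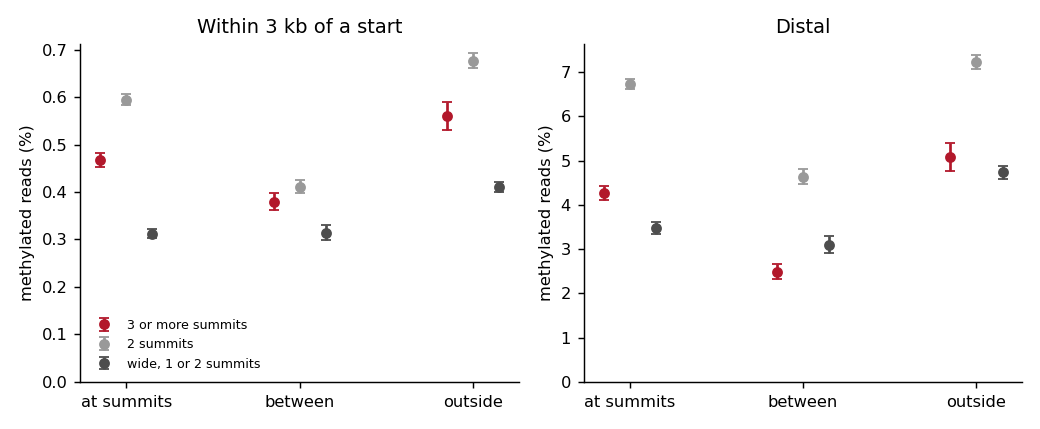
Percent of methylated reads at summits (within 50 bp), between the outer summits and outside them, with 95% Wilson intervals, for regions within 3 kb of a start (left) and distal regions (right). Multi-summit regions (red) are lower between than at their summits in both panels (0.379% and 0.467%; 2.49% and 4.27%), regions of 2 summits (light grey) are higher than them in every part, and wide promoter regions of 1 or 2 summits (dark grey) are level at and between summits.

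Within single members this difference was hardly ever detectable at these depths. Fisher's exact test per region, adjusted by Benjamini-Hochberg over 7061 regions of 2 or more summits, called 1 of 1810 members (0.0552%), against a background of 0.198% of all tested regions in either direction and 0.113% with higher methylation at summits. At an unadjusted p under 0.05 there were 70 members (3.87%), against 3.85% of all tested regions. The value at summits was the higher one in 923 members (51%), the value between in 590 (32.6%), and 297 were equal. Over all tested regions the first 2 shares were 47.3% and 31.2%. Over all members the parts at summits held more reads (881470 against 488159), and more reads make a methylated read likelier to be seen. The split can therefore be uneven at equal methylation. The called member, chr6:66910528-66911492 in an intron of Gng12, had 12 of 23 methylated reads at summits (52.2%) and 11 of 115 between them (9.57%; Fisher's exact test, adjusted p = 0.0116). No member was called when cytosines needed at least 10 reads. The reads at its summits came from the 1 CpG shown in its sequence above. The M-ATAC samples placed 1, 1, 2 and 2 summits in it, M-ATAC-NC 2 and 1 and ATAC 2 and 4.

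The next smallest p-values went both ways, and none passed. An intergenic member at chr1:40665348-40666182 had 3 of 36 methylated reads at summits and 8 of 12 between (Fisher's exact test, adjusted p = 0.0632). The members in introns of Kit, a receptor tyrosine kinase, and Ralgds, a GTPase regulator, and the promoter of the imprinted gene Impact each had an adjusted p of 0.0930 by Fisher's exact test. Ralgds was higher at summits (7 of 16 against 6 of 96 reads). Kit (0 of 132 against 8 of 80) and Impact (4 of 739 against 27 of 925) were higher between them.

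The 3 most methylated members were of another kind. At chr17:3081623-3082396 inside Pisd-ps2, with 5 summits, 103 of 136 reads over 9 cytosines were methylated (75.7%, 67.9 to 82.2%). At chr11:3134906-3135778 in Sfi1, which encodes a centrosome protein, with 4 summits, it was 296 of 430 reads (68.8%, 64.3 to 73.0%), and at chr7:108972261-108972951 in an intron of Tub, with 3 summits, 61 of 102 (59.8%, 50.1 to 68.8%). The first had 61.8% of its 31-base words elsewhere on the chromosomes or in the mitochondrial genome, the second 14.2% and the third 0%. Folds in the first pair were low, with highest values of 4.15 and 3.68, and 9.31 at Tub. In the Pisd-ps2 member ATAC placed 4 summits in both samples, M-ATAC-NC 2 and 3, and M-ATAC 0, 1, 1 and 1. In the Tub member both ATAC samples placed none, the M-ATAC-NC samples 1 each and M-ATAC 1, 1, 1 and 0. Neither Pisd-ps1 nor Slc5a8 had a start within 3 kb of a member, while Klf4 did. The Klf4 member (chr4:55532206-55533257, 4 summits, folds 5.45, 5.19, 3.34 and 5.63, 270 TPM) had 4 methylated reads of 2063 (0.194%, 0.0754 to 0.498%), 1 of 1362 at summits and 2 of 380 between.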

How the data were processed

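Peak lists of single samples and of merged M-ATAC and CTCF M-ChIP replicates, 1 table of cytosines in merged M-ATAC peaks and 1 RNA-seq table were used. For the M-ATAC, M-ChIP, ATAC and ChIP lists, the authors trimmed reads with Trim Galore 0.4.4, aligned them to mm10 (Bismark 0.18.1 for bisulfite libraries, Bowtie2 for ATAC and ChIP; the aligner of unconverted aliquots is not given in the sources used here), removed duplicates with SAMtools 1.3 and called peaks and summits with MACS2. Each summit in the lists deposited by the authors has a score, a fold enrichment over the local background and -log10 p and q from MACS2. The authors called the deposited KLF4 lists with PeaKDEck, with a p-value for each peak. Which M-ATAC replicates were merged is not stated. The deposited methylation table holds counts of methylated and unmethylated reads and their percent for each cytosine, from Bismark. The authors gave TPM for merged RNA-seq replicates, and the aligner is not given in the sources used here. A deposited table of methylation inside CTCF motifs was not used.

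Rows of the merged M-ATAC list with the same chromosome, start and end were taken as 1 region, and 3 or more summits made a member. Any shared base pair counted as overlap. A promoter lay within 3000 bp of a transcript start of GENCODE M21, and sequences came from RefSeq GRCm38.p6. Repeated cytosine rows were counted once and cytosines needed at least 5 reads. The values were computed with Python 3.11.15, pandas 2.3.3, numpy 2.4.6 and scipy 1.17.1, with pysam 0.24.0 and samtools 1.23.1 for sequence and blastn 2.17.0 for mitochondrial matches. Groups of 2 samples were compared with two-sided exact permutation tests, and methylation within a region with Fisher's exact test and Benjamini-Hochberg adjustment at 0.05, which was tested on simulated data. Intervals are 95% Wilson intervals and cover counting error only. The peak lists hold no read counts, and the depth of each library was not used here.

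The members, gene lists and tests were chosen with earlier results of these data known. Named regions were the 10 with the most summits (ties by width, which left out the narrowest of those with 6), the 3 widest, the 5 with the highest TPM among those holding a start (1 gene for each member), the 3 most methylated by the lower limit of the Wilson interval, the 5 with the smallest p at against between summits, list genes within 3000 bp of a member, and Klf4, Pisd-ps1 and Slc5a8. Alternatives were other distances, coverage minimums, overlap limits, summit minimums and a -log10 q of at least 5, each replicate left out, and replicate pairs.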

Additional observations from a re-analysis of the deposited data

How the results depend on the processing

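With 4 or more summits as the rule, 397 regions were left, and 83.6% of them lay within 3 kb of a start. The promoter share of the members was 69.4% within 1 kb, 63.8% when a start had to lie inside and 68.9% with protein-coding genes only. The median TPM was 16.02 for genes with a start in the region, 20.9 for genes of 1 TPM or more, 9.785 for all genes within 3 kb and 18.19 for members of 4 or more summits. Fisher's exact test called 4 members with cytosines of at least 1 read, 3 with summit windows of 25 bp, 3 with windows of 75 bp, 0 with at least 10 reads and 0 among members of 4 or more summits, against 1 as reported. The cause was not tested. The lower methylation between summits (-0.202 percentage points) kept its direction in all 7 alternatives, from -0.321 to -0.146, and was -0.162 without the 3 most methylated members, an alternative chosen after seeing the data. With each replicate left out in turn, CTCF M-ChIP minus CTCF M-ChIP-NC ranged from -0.34 to 3.06 points and WT minus Klf4-/- KLF4 lists from -7.649 to 0.4128. The other 5 differences between groups kept their direction, with ranges in M-ATAC-NC minus ATAC of -11.8 to -6.19 for 3 or more summits, 0.777 to 6.75 for overlap and -6.17 to -1.61 for matched summits. WT minus Klf4-/- was -1.01 among members of 4 or more summits. The labels do not say whether samples with the same replicate number belong together, although the unconverted samples were aliquots taken before conversion. With the replicate number as a block, the differences were the same by construction (-8.985 points for 3 or more summits, p = 0.5 by exact sign-flip permutation, the smallest 2 pairs allow). With 2 samples a group no comparison could pass 0.05.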
